A study of Arabidopsis thaliana with 7 samples.

Results

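The genes described here are AT2G21640, whose transcript is a marker of oxidative stress in mitochondria, and AER (AT5G16970), which encodes alkenal reductase. They were chosen by name, and both were found, each on 1 probe set, among 13355 annotated genes on 7 Affymetrix ATH1 arrays. The arrays measured RNA from whole seedlings of Arabidopsis thaliana accession Ler-0. After 14 days on Murashige and Skoog medium, the plants spent 21 days on the same medium holding cadmium sulfide quantum dots (CdS QDs), semiconductor nanocrystals that contain cadmium, at 0, 40 or 80 mg/L. WT was measured at 0, 40 and 80 mg/L, and the mutants atnp01 and atnp02, both tolerant to the dots per the labels, at 0 and 80 mg/L. The labels name neither the disrupted gene nor the allele of either mutant. Each group was 1 array, so every array is its own group. Whether the 0.1 g of material behind an array came from 1 or several plants is not stated.

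Plant cells that lose electron flow in the mitochondrial respiratory chain signal to the nucleus, a route called mitochondrial retrograde signalling. Transcription factors of the NAC family then raise transcripts for alternative respiration, transport and stress proteins, and AT2G21640 is among the genes used to follow that response. Alkenal reductase deals with a product of oxidative damage: peroxidised membrane lipids break down to reactive alkenals such as hydroxynonenal, and the enzyme uses NADPH to reduce their reactive double bond. Cadmium is known to disturb the redox balance of plant cells although it takes no part in redox cycling itself.

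All levels are the deposited log2 values, read here on the basis that 1 unit stands for 2-fold. Array medians lay between 3.39 and 3.48, and between 3757 and 3860 probe sets an array were at log2 6 or above, the floor used for the main tests. Of 10 green tissue markers, the 7 on the annotation lay between 5.24 and 11.62. The root marker PYK10 lay between 10.23 and 10.70. The other annotated root marker, AT5G66390, was at most 3.48 on any array, below the floor. Shoot RNA was thus present, while the presence of root RNA was read from PYK10 alone. The 1 annotated pollen marker, AT3G01270, lay between 1.29 and 2.80, and no seed marker was on the annotation. In whole seedlings, a change in the share of a cell type and a change in RNA per cell cannot be told apart. Tissue markers moved with exposure: in the fit at the floor of 80 against 0 mg/L, described below, 6 of the 7 green tissue markers fell and LHCB4.3 rose by 1.09, where 29.3% of genes fell and 27.8% rose. PYK10 fell by 0.25 (limma, adjusted p = 0.00813). In the fit of all genes, where 9.73% fell and 9.38% rose, 4 of the 7 green markers fell, PYK10 did not pass (limma, adjusted p = 0.0608), the root marker AT5G66390 fell by 0.91 and AT3G01270 rose by 0.98. The mean of 24 poly-A spike-in probe sets, which follow amplification, differed between 80 and 0 mg/L by -0.40 (WT), -0.72 (atnp01) and -0.48 (atnp02), and by -0.33 between 40 and 0 mg/L in WT. The part of these shifts in the results below was not tested.

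AT2G21640 was low in every unexposed line and higher on every array from exposed plants. At 0 mg/L its level was 3.46 in WT, 3.64 in atnp01 and 3.65 in atnp02. In WT it was 5.09 at 40 mg/L and 5.71 at 80 mg/L. In the mutants at 80 mg/L it was 6.19 in atnp01 and 5.92 in atnp02. The 4 exposed arrays did not overlap with the 3 unexposed ones, and a gap of 1.43 separated the groups. Such a separation, with all exposed arrays above all unexposed ones, was found for 12.3% of all genes and 25.9% of those tested at the floor. Anything else that the exposed plants shared cannot be told apart from the dots.

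**Figure D1:**
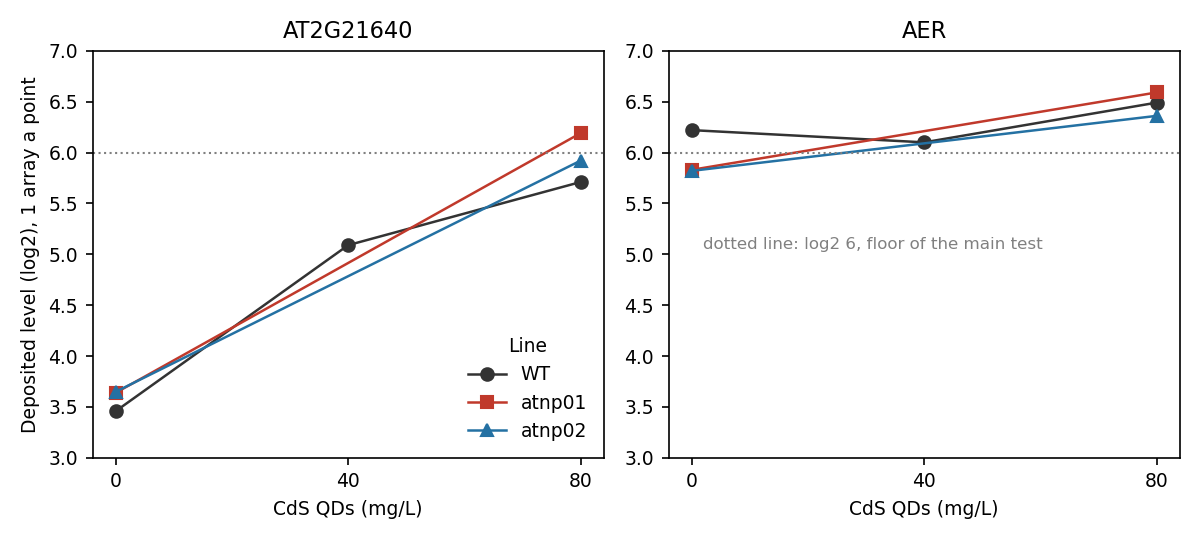
Deposited log2 level (vertical axis) of AT2G21640 (left) and AER (right) against the dose of CdS QDs in mg/L, 1 array a point, with lines joining the arrays of WT, atnp01 and atnp02. AT2G21640 goes from between 3.46 and 3.65 without the dots to between 5.71 and 6.19 at 80 mg/L, while AER in WT stays at 6.22 and 6.10 at 0 and 40 mg/L and is at 6.49 at 80 mg/L.

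The difference lay between 2.25 and 2.55 in the 3 lines. At 80 against 0 mg/L, AT2G21640 was higher by 2.25 in WT, or 4.75-fold, where 2.47% of all genes were higher by at least log2 1. It was higher by 2.55 in atnp01 (5.87-fold), against a background of 3.16%, and by 2.27 in atnp02 (4.81-fold), against 3.83%. Its rank from the highest among 13355 genes was 54 in WT, 40 in atnp01 and 89 in atnp02. A difference of at least log2 1 in all 3 lines was seen for 1.57% of genes.

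Across the lines, AT2G21640 rose at 80 mg/L by 2.36 on the log2 scale (SE 0.26, 95% interval 1.74 to 2.98, limma, adjusted p = 0.000432), a 5.12-fold difference with an interval from 3.33 to 7.87. It was higher in 3 of 3 lines. In this fit of line and dose to the 6 arrays at 0 and 80 mg/L, 27.8% of 2106 genes rose, and AT2G21640 had rank 27 from the highest. It reached the floor on 1 array, that of atnp01 at 80 mg/L, so it entered the test through an exposed array. In the fit of all 13355 genes with no floor, where 9.38% rose, the coefficient was again 2.36 (SE 0.10, limma, adjusted p = 0.00023).

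The error of this gene came mostly from other genes. The residual SD of AT2G21640 itself was 0.12 with 2 residual degrees of freedom, while the value that limma expected at its mean intensity was 0.37 among genes at the floor. Without the intensity trend the SE was 0.09. The spread is that of the response among 3 lines, not among plants of a line.

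In WT most of the difference at 80 mg/L was already there at 40 mg/L. The level at 40 mg/L was higher by 1.62 than without the dots, 3.08-fold, which is 72.2% of the log2 difference at 80 mg/L. Among all genes 2.37% were higher by at least log2 1 in that pair of arrays, and AT2G21640 had rank 101. In a fit of all 7 arrays with dose in 3 classes, AT2G21640 rose at 40 mg/L by 1.68 (SE 0.36, 95% interval 0.82 to 2.54, limma, adjusted p = 0.0156), where 17.7% of 2140 genes rose. The array at 40 mg/L lay below the floor, so the gene entered this test through atnp01 at 80 mg/L. With no floor the coefficient was again 1.68 (SE 0.15). The estimate of 1.68 exceeds the plain difference of 1.62. The reason is that the fit gives WT the difference at 80 mg/L common to the lines, 2.36, in place of its own 2.25. This sets the fitted level of unexposed WT below the measured one.

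From 40 to 80 mg/L the level of AT2G21640 in WT was higher by a further 0.63, with 0.651% of all genes higher by at least log2 1 in that pair. The direct test gave 0.68 (95% interval -0.18 to 1.54, limma, adjusted p = 0.391), and it did not pass, where 3.32% of genes did. That interval runs from 0.881-fold to 2.91-fold. In the fit with no floor it was 0.31 to 1.05, or 1.24-fold to 2.07-fold, and did not pass after adjustment either (limma, adjusted p = 0.226). The single array at 40 mg/L was assumed to vary like the others, and the comparisons with 0 and with 40 mg/L share arrays.

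No line term of AT2G21640 passed. Without the dots the mutants were higher than WT by 0.18 and 0.19, and both values rest on the same WT array. At 80 mg/L atnp01 was higher than WT by 0.48 and atnp02 by 0.21. Over both doses the line coefficient was 0.33 for atnp01 (95% interval -0.43 to 1.09, limma, adjusted p = 0.811). In the fit with no floor the atnp01 interval was 0.04 to 0.62, and the term did not pass after adjustment (limma, adjusted p = 0.682). For atnp02 the coefficient at the floor was 0.20 (95% interval -0.56 to 0.96, limma, adjusted p = 0.898). At the floor these terms passed for 0.142% and 0.0475% of genes. The 2 mutants differed by -0.13, atnp02 minus atnp01 (95% interval -0.89 to 0.63, limma, adjusted p = 0.915), where 0.095% of genes passed.

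Whether the mutants respond differently from WT was tested with a mutant-by-dose term that takes the mutants as 1 class. For AT2G21640 the term was 0.16 (95% interval -1.42 to 1.75, limma, adjusted p = 0.946), and 0.0475% of genes passed. With 1 residual degree of freedom, the interval spans a response up to 3.36-fold larger in the mutants. In order of level the 7 arrays ran from WT, atnp01 and atnp02 at 0 mg/L through WT at 40 and WT at 80 mg/L to atnp02 and atnp01 at 80 mg/L. Only the step of 1.43 from the unexposed arrays to WT at 40 mg/L exceeded 1.07, the 95% half-width for a difference of 2 arrays in the fit at the floor. In the fit with no floor that half-width was 0.41, and the step of 0.63 from WT at 40 to WT at 80 mg/L exceeded it too. Both half-widths came from fits without the array at 40 mg/L and were not adjusted for the choice of steps. The direct test of 80 against 40 mg/L did not pass in either fit.

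**Figure D2:**
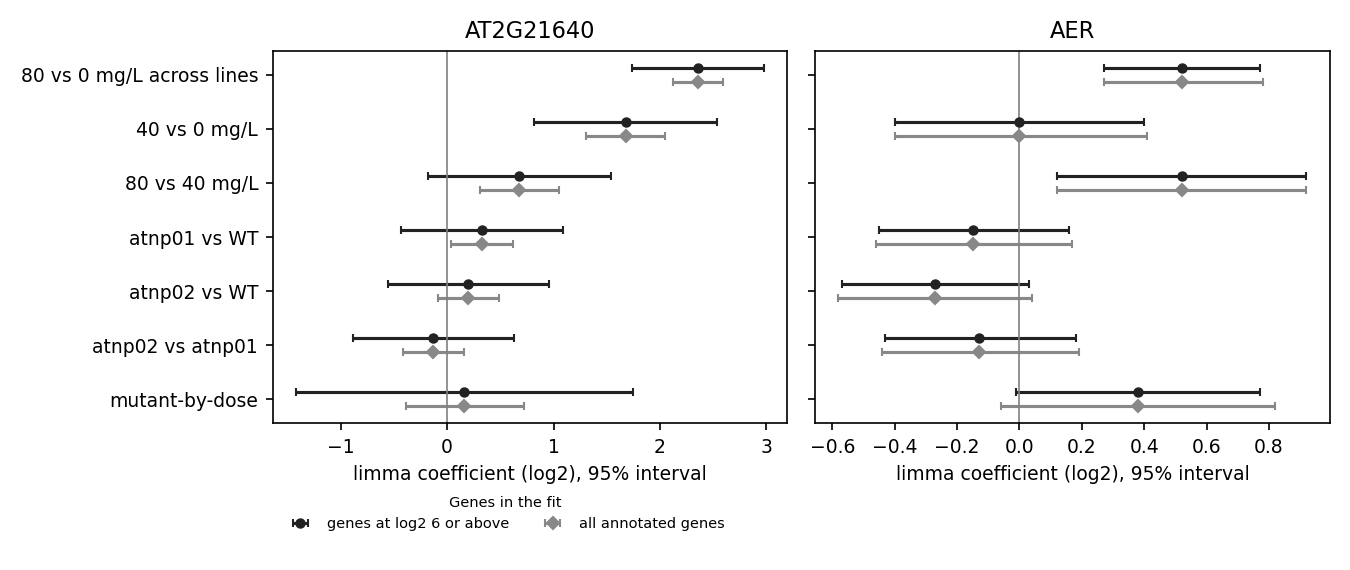
limma coefficients (log2, horizontal axes with a scale of their own) with 95% intervals for 7 comparisons, AT2G21640 left and AER right, from fits of genes at log2 6 or above (circles) and of all annotated genes (diamonds). For AT2G21640 the coefficients at 80 and 40 mg/L, 2.36 and 1.68, stand clear of 0 in both fits, and for AER that at 80 mg/L, 0.52, does while that at 40 mg/L lies at 0. The intervals are not adjusted over genes: those at 80 against 40 mg/L that lie above 0 did not pass after adjustment. The same holds for AT2G21640 in atnp01 against WT in the fit of all genes.

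AER was a brighter probe set with a small difference. At 0 mg/L its level was 6.22 in WT, 5.83 in atnp01 and 5.82 in atnp02. In WT it was 6.10 at 40 mg/L and 6.49 at 80 mg/L. In the mutants at 80 mg/L it was 6.59 in atnp01 and 6.36 in atnp02. The arrays at 80 mg/L lay above all 3 unexposed arrays by 0.13, as was the case for 14.8% of all genes and 30.4% of those tested at the floor, while the array at 40 mg/L lay inside the unexposed range.

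At 80 mg/L AER was higher than at 0 mg/L by 0.27 in WT (1.21-fold). It was higher by 0.76 in atnp01 (1.70-fold) and by 0.54 in atnp02 (1.45-fold). None of these reached log2 1. A difference at least as high was seen in 15.8% of genes in WT, 4.72% in atnp01 and 8.87% in atnp02. The poly-A spike-in signal was lower by the most in atnp01, the line with the largest AER difference, and by the least in WT, the line with the smallest. The differences of AT2G21640 had the same order of lines, at 2.55 (atnp01), 2.27 (atnp02) and 2.25 (WT). The part of the spike-in shifts in the values of either gene was not tested.

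In the fit across lines AER rose at 80 mg/L by 0.52 (SE 0.10, 95% interval 0.27 to 0.77, limma, adjusted p = 0.00524), or 1.44-fold with an interval from 1.21 to 1.71. It was higher in 3 of 3 lines, and it had rank 317 among the 2106 genes, of which 27.8% rose. In the fit with no floor the adjusted p from limma was 0.0192. With the WT array at 40 mg/L counted as exposed, the coefficient was 0.42 and the limma call was lost (adjusted p = 0.067, in a range from 0.00182 to 0.067 over 12 alternatives).

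At 40 mg/L AER showed no difference that these arrays could detect. The plain difference in WT was -0.12. The fit of 7 arrays gave 0.00 (95% interval -0.40 to 0.40, limma, adjusted p = 0.992), so that differences from 0.76-fold to 1.32-fold remain within the interval. From 40 to 80 mg/L the level was higher by 0.39 in WT, and the test gave 0.52 (95% interval 0.12 to 0.92, limma, adjusted p = 0.164), which did not pass after adjustment over 2140 genes. Its unadjusted p was 0.0177. Both fitted values, 0.00 and 0.52, exceed the plain differences in WT, -0.12 and 0.39. The reason is that the fit gives WT the difference at 80 mg/L common to the lines, 0.52, in place of its own 0.27. The common value draws on the mutants, which have no array at 40 mg/L.

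The unexposed mutants had less AER signal than unexposed WT, with differences of -0.39 in atnp01 and -0.40 in atnp02 that share the WT array. Of all genes 7.77% and 7.68% were at least as far apart in these pairs. At 80 mg/L the differences from WT were 0.10 and -0.14. Over both doses the coefficient was -0.15 for atnp01 (95% interval -0.45 to 0.16, limma, adjusted p = 0.793). It was -0.27 for atnp02 (95% interval -0.57 to 0.03, limma, adjusted p = 0.695). The mutants differed from each other by -0.13, atnp02 minus atnp01 (95% interval -0.43 to 0.18, limma, adjusted p = 0.804).

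The mutant-by-dose term of AER was 0.38 (95% interval -0.01 to 0.77, limma, adjusted p = 0.483), and it did not pass. A response up to 1.71-fold larger in the mutants than in WT lies within that interval. The largest step in the order of the 7 AER levels was 0.27, from atnp01 at 0 mg/L to WT at 40 mg/L, and no step exceeded the 95% half-width of 0.43 for a difference of 2 arrays.

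AER lies on chromosome 5 in a row of related genes, in the gene order of assembly TAIR10.1. Its direct neighbours AT5G16960 and AT5G16980, which are on the list of alkenal reductase relatives, rose as well in the fit of all genes. In that fit 9.38% of all genes rose. AT5G16960 was at 2.31, 1.69 and 2.01 in unexposed WT, atnp01 and atnp02, and at 3.13, 2.78 and 3.06 at 80 mg/L, and it rose by 0.99 (SE 0.12, limma, adjusted p = 0.00407). AT5G16980 rose by 0.60 (SE 0.12, limma, adjusted p = 0.0206), from between 2.93 and 3.42 to between 3.56 and 3.88. The next gene, AT5G16990, had a coefficient of 0.02 (limma, adjusted p = 0.891) at levels from 5.49 to 5.75.

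The 2 neighbours that rose never reached the floor, and whether probe sets of these related genes also bind each other's transcripts, AER included, was not tested. A probe set that the annotation gives to both AT5G17000 and AT5G16980 lay between 1.47 and 2.01 on all arrays. In WT at 40 mg/L, AT5G16980 differed from its unexposed level by -0.44 and AT5G16960 by 0.35. Farther along the chromosome AT5G16940, AT5G16950 and AT5G17010 had coefficients of 0.13, 0.18 and -0.05, and none passed.

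AT2G21640 lies on chromosome 2, and of the 6 annotated genes nearest to it only RD2, a gene named for its response to desiccation, passed the test. At the floor 27.8% of genes rose, and 9.38% with no floor, so 1 of 6 is near the background. RD2, 2 protein-coding genes away, was at 7.74, 7.74 and 7.87 without the dots and at 8.59, 8.73 and 8.81 at 80 mg/L. It rose by 0.92 (SE 0.07, limma, adjusted p = 0.000108), and at 40 mg/L in WT it was higher by 0.88. The gene between them, AT2G21630, had a coefficient of 0.06 in the fit of all genes (limma, adjusted p = 0.868), and the other 4 lay between 0.01 and 0.15.

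**Figure D3:**
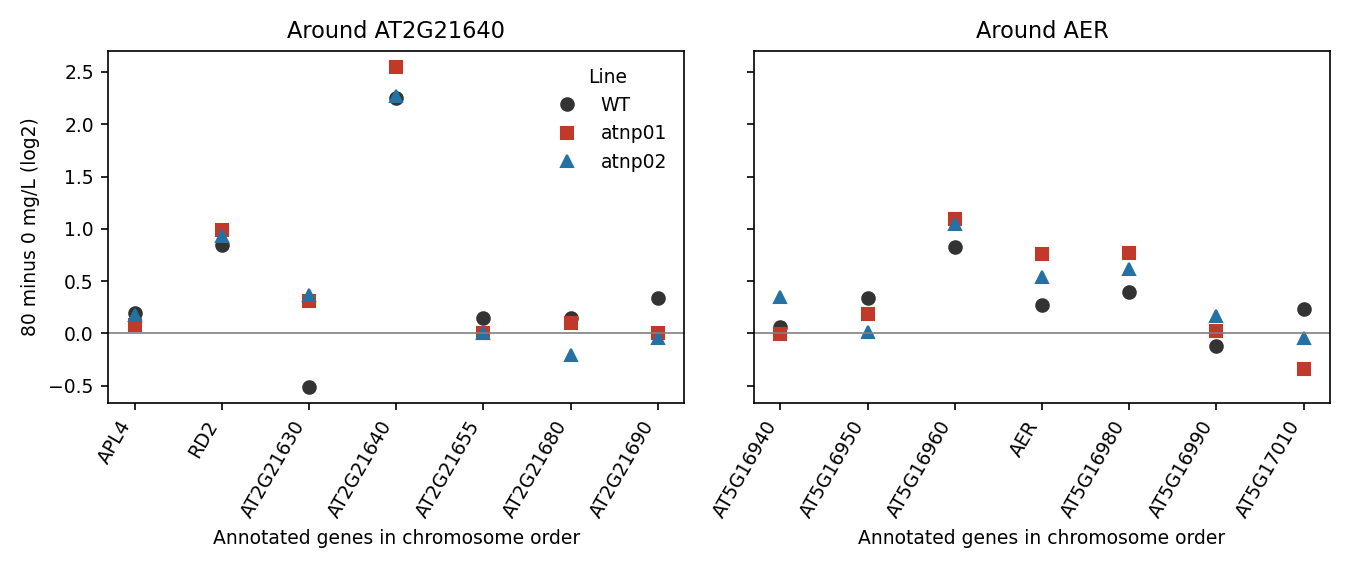
Difference between 80 and 0 mg/L (log2, vertical axis) in WT, atnp01 and atnp02, 1 pair of arrays a point, for AT2G21640 and AER and the 3 annotated genes on either side of each in chromosome order. AT2G21640 stands at 2.25 to 2.55 beside RD2 at 0.85 to 0.99, while AER and its neighbours AT5G16960 and AT5G16980 lie above 0 in every line.

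The wider set of nuclear genes known to answer mitochondrial dysfunction was described with a list of 18 genes, of which 10 were on the annotation. In the fit of all genes 6 of the 10 rose and none fell, with a median coefficient of 0.56. Over all genes 9.38% rose, 9.73% fell and the median was -0.04. AT2G21640 is itself among the 6. In the fit at the floor 3 of the 10 were tested, and 2 of these rose, AT2G21640 itself and AT5G43450. In that fit 27.8% of all genes tested rose. The genes below the floor that are named in the following were chosen after their values were seen.

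The largest coefficient of the list was that of AT2G04050. It was at 3.03, 3.40 and 3.18 in unexposed WT, atnp01 and atnp02, at 4.38 in WT at 40 mg/L, and at 5.34, 5.77 and 5.72 at 80 mg/L. It rose by 2.41 (SE 0.09, limma, adjusted p = 0.000228) in the fit of all genes. Its list neighbour AT2G04070 rose by 1.29 (limma, adjusted p = 0.0246), with 0.43 in WT against 1.58 and 1.87 in the mutants, from levels of 1.52 to 1.85 that lay near background.

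The other members of the list that rose were AT5G14730 by 0.85, AT5G51440 by 0.70 and AT5G43450 by 0.43. AT5G51440 was higher at 40 than at 80 mg/L in WT, at 4.63 against 3.88. AT2G41380 reached the floor in WT at 40 mg/L, with 6.50, and in atnp02 at 80 mg/L, with 6.08. It entered the fit of 80 against 0 mg/L through the atnp02 array and had a coefficient of 0.10 there (limma, adjusted p = 0.433). AT5G09570, which lay between 4.41 and 4.94, had a coefficient of 0.07 in the fit of all genes (limma, adjusted p = 0.592). AT2G32020 had 0.26 (limma, adjusted p = 0.298). NDB4, an alternative NADH dehydrogenase gene, lay between 1.29 and 2.02 and did not pass. The alternative oxidase gene AOX1A and the NAC factors of this pathway were not analysed here.

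Genes of alternative respiration were described with a list of 17, of which 5 were on the annotation and none reached the floor. In the fit of all genes none rose and 1 fell, with a median of 0.12. With 9.38% of all genes rising and 9.73% falling, these counts are near the background. NDB1, which encodes an external NADPH dehydrogenase of mitochondria, fell by 0.62 (SE 0.11, limma, adjusted p = 0.0146), from between 4.09 and 4.30 to between 3.45 and 3.72. NDB2, of the same family, had a coefficient of 0.46 (limma, adjusted p = 0.0675), with differences of 0.21, 0.35 and 0.82 in WT, atnp01 and atnp02.

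Among core proteins and redox enzymes of mitochondria 1 gene fell and none rose at the floor, where 29.3% of all genes tested fell and 27.8% rose. The 4 annotated core proteins of 16 listed all reached the floor, and none passed in the fit at the floor. The succinate dehydrogenase gene SDH1-1 had the largest coefficient, 0.22 (limma, adjusted p = 0.0542), and the cytochrome c genes CYTC-1 and CYTC-2 had 0.16 and 0.07. Of 4 annotated mitochondrial redox genes 2 reached the floor. The glutathione reductase gene GR fell by 0.49 (SE 0.08, limma, adjusted p = 0.00236), and the mitochondrial peroxiredoxin gene PRXIIF had a coefficient of 0.11 (limma, adjusted p = 0.204).

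AT2G21640 also belongs to a short list of 5 genes known to respond to several kinds of reactive oxygen, of which 4 were on the annotation. In the fit of all genes 2 rose, AT2G21640 being 1 of them, and none fell, with a median of 0.84, against 9.38% risen, 9.73% fallen and a median of -0.04 over all genes. AT1G05340 was at 5.79, 5.69 and 5.52 in unexposed WT, atnp01 and atnp02, at 6.57 in WT at 40 mg/L, and at 7.10, 7.22 and 7.25 at 80 mg/L. It rose by 1.52 (SE 0.09, limma, adjusted p = 6.12e-05 in the fit at the floor). AT1G19020 differed by -0.56 (WT), 0.10 (atnp01) and 0.55 (atnp02), and its coefficient of 0.03 did not pass. AT1G57630 lay between 0.56 and 1.01, near background.

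Of 12 genes listed as relatives of alkenal reductase, 10 were on the annotation. In the fit of all genes 4 rose, AER among them, and none fell, with a median of 0.19, where 9.38% of all genes rose, 9.73% fell and the median was -0.04. The 4 include AT5G16960 and AT5G16980, the neighbours of AER described above, so their calls are not a further observation. Whether the probe sets of these neighbours and of AER bind each other's transcripts was not tested. The largest coefficient was that of AT3G59845, at 2.01 (SE 0.24, limma, adjusted p = 0.0036). It was at 3.17, 2.56 and 2.75 in unexposed WT, atnp01 and atnp02, at 5.54 in WT at 40 mg/L, and at 5.21, 3.88 and 5.40 at 80 mg/L, so that the exposed atnp01 array was the lowest of the exposed ones. AT5G37960, AT5G37980, AT3G03080 and AT1G26320 lay between 0.56 and 1.74 on all arrays. AER was the only one of these 10 genes to reach the floor.

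Enzymes that remove reactive carbonyls by other reactions went both ways. Of 17 listed genes the 4 on the annotation all reached the floor, and in the fit at the floor 1 rose and 2 fell, with a median of -0.29. Over all genes tested 27.8% rose and 29.3% fell, and the median was -0.03. ALDH7B4, an aldehyde dehydrogenase gene, was at 7.99, 8.26 and 7.93 in unexposed WT, atnp01 and atnp02, and at 8.98, 9.30 and 9.06 at 80 mg/L. It rose by 1.05 (SE 0.07, limma, adjusted p = 6.77e-05), and in WT it was already at 9.01 at 40 mg/L.

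AOR, which encodes the chloroplast enzyme that reduces the same alkenal double bond, fell by 0.40 (SE 0.08, limma, adjusted p = 0.00585). Its differences, -0.25 in WT, -0.57 in atnp01, -0.39 in atnp02, were opposite in sign to those of AER. At 40 mg/L in WT it differed by 0.02, and neither gene had moved by more than 0.12 there. The aldehyde dehydrogenase gene ALDH3F1 fell by 0.61 (SE 0.07, limma, adjusted p = 0.000638), and ALDH2C4 had a coefficient of -0.18 (limma, adjusted p = 0.0735). The 4 annotated reference genes, with GAPC2 and PEX4 among them, had coefficients between -0.16 and 0.01 in the fit of all genes, and none passed.

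**Figure D4:**
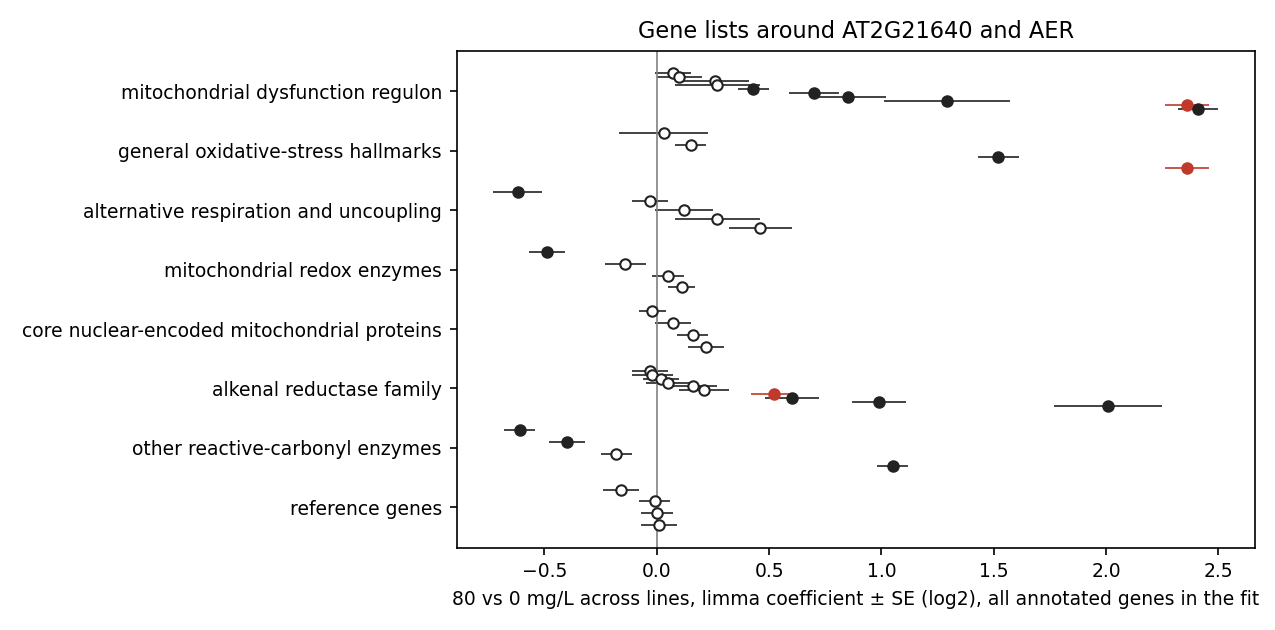
limma coefficients for 80 against 0 mg/L across lines (log2, horizontal axis, bars are SE) of every annotated gene on 8 lists, from the fit of all annotated genes. Filled points have an adjusted p under 0.05, and AT2G21640 and AER are drawn in red. AT2G21640 at 2.36 lies beside AT2G04050 at 2.41, and the reference genes lie between -0.16 and 0.01.

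The genes whose profile over the 7 arrays was most like that of AT2G21640 were found by the root mean square difference between log2 profiles, each centred on its own mean, among 2139 genes that reached the floor. They were PDC2, a pyruvate decarboxylase gene of fermentation (0.275), AT2G25450 (0.280), AT5G39520 (0.289), AT2G16660 (0.294) and Prx37, a class III peroxidase gene (0.302). The median over all 2139 genes was 1.12. PDC2 was at 4.81, 5.84 and 7.36 in WT at 0, 40 and 80 mg/L. Prx37 was at 3.47, 6.15 and 6.08 at the same doses. Without the WT array at 40 mg/L, 3 of the 5 genes stayed among the nearest 5.

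For AER the nearest profiles among genes at the floor were those of AT5G05200 (0.078), AT2G47250 (0.098) and the plastid-encoded maturase gene matK (0.100). AT2G27500 (0.114) and AT5G56190 (0.116) came next, with a median of 0.344 over the 2139 genes compared. AT5G05200 was at 7.77, 7.84 and 8.17 in WT at 0, 40 and 80 mg/L. Like AER it was lower in the unexposed mutants, at 7.49 and 7.55, than in unexposed WT. Without the WT array at 40 mg/L, 2 of the 5 stayed among the nearest 5. The rank of AER among profiles like AT2G21640 was 339, and that of AT2G21640 among profiles like AER was 2048. The profiles were centred but not scaled, so these ranks reflect the size of a change as well as its pattern. Over the 7 arrays AT2G21640 spanned 2.73 and AER 0.78.

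**Figure D5:**
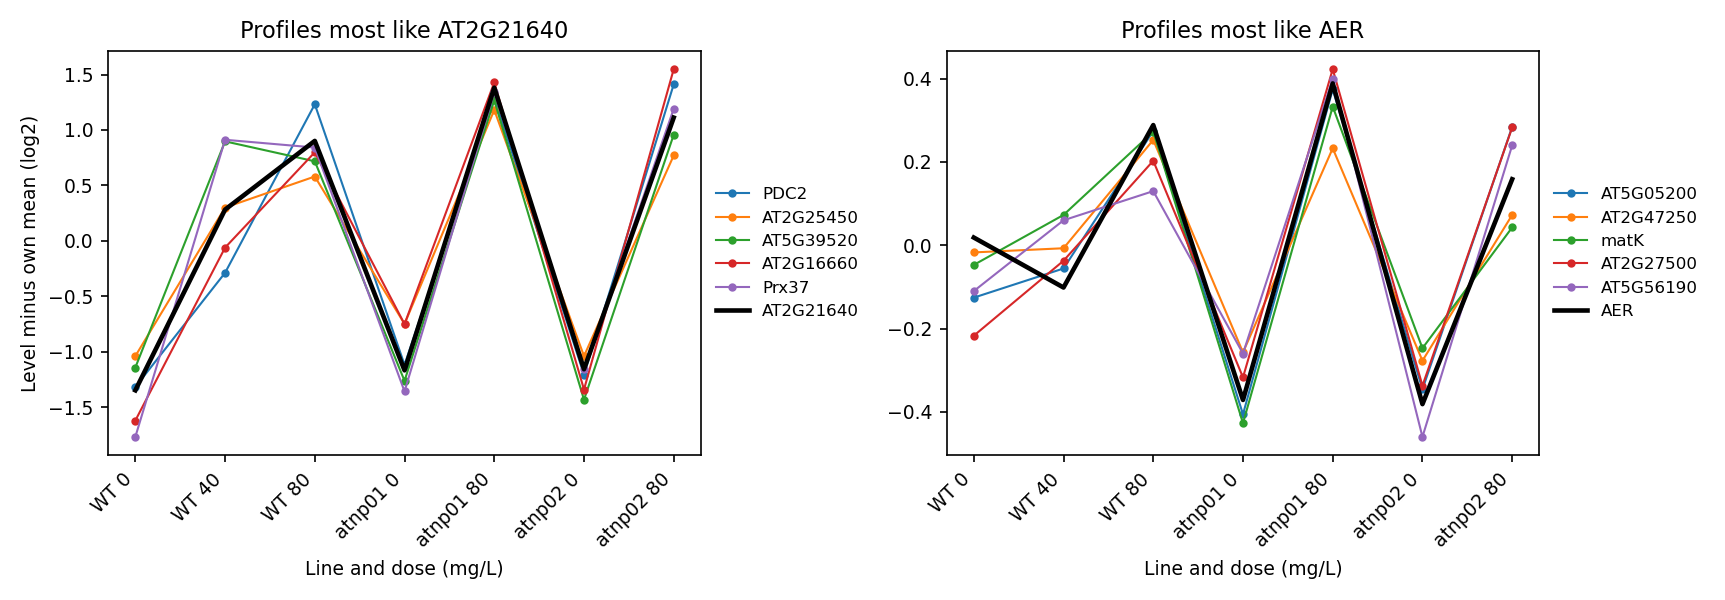
Level minus the gene's own mean over the 7 arrays (log2, vertical axis) on each array. AT2G21640 (left) and AER (right) are in black. In colour are the 5 genes of most similar profile among those that reached the floor, and the vertical scales differ. Lines join arrays only to make a profile visible, and the genes lie within a root mean square difference of 0.302 of AT2G21640 and 0.116 of AER.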

How the data were processed

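Per the submitters' processing notes, the authors used Affymetrix Expression Console 1.1 and RMA, and the deposited values are log2 levels. Settings of that software and any later step are not stated by the labels or headers. Of 22810 probe sets, 64 were controls, 13513 others had 1 annotated gene, and 13436 of these matched the gene table of assembly TAIR10.1, used for names and gene order. The probe set with the highest mean stood for a gene with several. Line and dose terms were fitted with limma 3.58.1 (R 4.3.3), whose eBayes step let the variance follow intensity. Adjusted p-values (Benjamini-Hochberg, over all genes tested) under 0.05 were calls. The main tests took genes whose brightest array reached log2 6, and a fit with no floor is given beside them. The number of arrays limits the precision, and p-values measure only the spread of single arrays across lines. The members, the gene lists (compiled from general knowledge) and the tests were chosen with earlier results of these data known. Genes named are the 2 members, up to 4 genes a list that reached the floor with the largest coefficients, the 5 nearest profiles and the 3 annotated genes on either side. List genes below the floor fall outside this rule and were named after their values were seen. Lists of regulators and of oxylipin synthesis had no gene on the annotation. No sequences were used here. Python 3.11.15 and pandas 2.3.3 made the other tables.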

Additional observations from a re-analysis of the deposited data

How the results depend on the processing

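For AT2G21640 and AER, 14 tests were recomputed under 110 alternatives, and 106 of these values kept their direction and their side of the threshold. The rise of AT2G21640 at 80 mg/L ranged from 2.22 to 2.41, and at 40 mg/L from 1.63 to 1.70. For AER at 80 mg/L, counting the WT array at 40 mg/L as exposed gave 0.42 and no call (limma, adjusted p = 0.067). The AER estimate at 40 mg/L changed sign, without a call, to -0.02 after quantile normalization, -0.06 without atnp01 and -0.0009 without atnp02. The number of genes called at 80 mg/L, 1202, was 2552 with no floor, 620 with a floor of log2 7, 780 with a linear dose term and 2583 over all non-control probe sets that reach the floor, with or without a gene name. At 40 mg/L it was 749, and 431 with a floor of log2 7 and 1576 over those probe sets. At 80 against 40 mg/L it was 71, and 39 with no floor, 40 without the trend, 48 and 33 without atnp01 and atnp02, and 188 over those probe sets. Line terms called 1 to 3 genes, and 0 to 14 under the alternatives. The mutant-by-dose term called 1 gene, 12 after quantile normalization, 10 with a floor of log2 7, and none in limma with no floor, where 678 had an unadjusted p under 0.05. With a floor of log2 7 neither gene was tested. The floor of log2 5 was added after the data were seen. The arrays at 0 and 80 mg/L pair by line, and the main test holds that pairing as its line term. Without the line term both calls at 80 mg/L held, at 2.36 and 0.52 (limma, adjusted p = 0.000331 and 0.00987). A further pairing by replicate could not be made, since the labels carry no replicate numbers. Levels below about log2 2 lie near background, and differences between them have no exact size.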
